A study of Mus musculus with 32 samples.

Results

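Ribosome-bound RNA was set against total RNA of microglia sorted from brains of Sall1-CreER:RPL22-HA mice. The libraries were chosen by title and column name, which agree: 4 Sall1 SortIP libraries and 4 Sall1 Sort libraries, 8 of the 32 libraries of the series. SortIP is sorted microglia whose tagged ribosomes were then precipitated with an anti-HA antibody, and Sort is RNA of sorted microglia with no precipitation. Both groups were C57BL/6 mice of the same genotype, both had been given 5 mg of tamoxifen by gavage on 4 occasions, on alternate days, at 4 to 6 weeks of age, and both were made from polyadenylated RNA. Each of mice 17, 21, 7 and 9 gave 1 library of each kind, since the series design states that every brain was divided among the assays. The wider study compared Sall1-CreER with Cx3cr1-CreER mice as tools for brain macrophages, and also held anti-HA (HA) and control antibody (IgG) precipitates of whole brain homogenate.

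In RiboTag mice, a floxed Rpl22 allele gains a haemagglutinin (HA) epitope once Cre has acted, so that ribosomes of recombined cells and the messages on them can be pulled down. Messages under translation are recovered with the ribosome, whereas RNA that stays in the nucleus, is not yet exported or is not translated is present in total RNA but has no ribosome to be pulled down by. Microglia are the resident macrophages of the brain parenchyma, known for complement, lysosomal and Fc receptor genes. The model has limits: the tag depends on Cre activity driven from Sall1, which is also active in cells outside the microglial lineage, and no control antibody precipitate of sorted cells was among the 32 libraries. Nonspecific RNA in SortIP was therefore not measured.

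Sorted libraries carried the microglial label. All 28 genes of the homeostatic microglia list were measured, and together they took 14.4 ± 0.80% of gene counts in SortIP and 10.9 ± 0.80% in Sort (SD, n = 4 each), against 2.03% in HA and 0.328% in IgG precipitates of homogenate of the same line. Depth was modest: gene counts ranged from 249881 to 980218 in SortIP and from 761172 to 1453481 in Sort. The shallowest library, SortIP of mouse 21, also had the lowest mean correlation with the other SortIP libraries (0.863, against 0.894 to 0.914 for the other 3). It held 0.0256% of its counts in neutrophil genes, against at most 0.0025% in the other SortIP libraries, and 0.0548% in oligodendrocyte genes, against at most 0.0274%. Gene counts made up 65.3 to 74.8% of the mapped total in SortIP and 62.1 to 65.8% in Sort. All levels below are gene counts scaled by the total of their library (CPM), listed for mice 17, 21, 7 and 9 in that order, and fold changes are log2 values of SortIP over Sort with their SE.

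Of 8603 genes tested, 634 were higher in SortIP and 659 were lower at an adjusted p under 0.05 (edgeR quasi-likelihood test with mouse as a block, Benjamini-Hochberg), and such a gene is termed called. This is 7.37% of tested genes called higher, 7.66% called lower and 15.0% either way. Counts of list members below are to be read beside these shares. Some genes of the protocadherin gamma cluster had the same fold change, SE and mean level. Each counts as a separate higher gene, so these calls are not separate observations. Changes were mostly small: the median size was 0.69 among higher and 0.86 among lower genes, and a change of at least 1 was seen in 102 higher and 216 lower genes. The median over all tested genes was -0.01. SortIP and Sort libraries did not overlap in 1538 of the tested genes (17.9%). Within each mouse taken alone, 587 of the 634 higher genes lay above the median gene in all 4 mice, and 611 of the 659 lower genes lay below it in all 4. These 2 counts describe the choice made by the test and are no separate support for it. Without mouse 17 the calls fell to 353 higher and 349 lower of 8308 tested. Without mouse 21, whose SortIP library stands apart, they fell to 411 higher and 430 lower of 8607 tested. Of the 1293 called genes, 644 were called in the same direction without mouse 17 and 795 without mouse 21, and 0 were called in the opposite direction in either. With the block left out, 469 were higher and 437 lower. Scaling by library size alone moved the median gene to -0.15 and gave 356 higher and 1141 lower genes, so the split between directions differed with the scaling, and changes are given relative to the median gene.

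**Figure D1:**
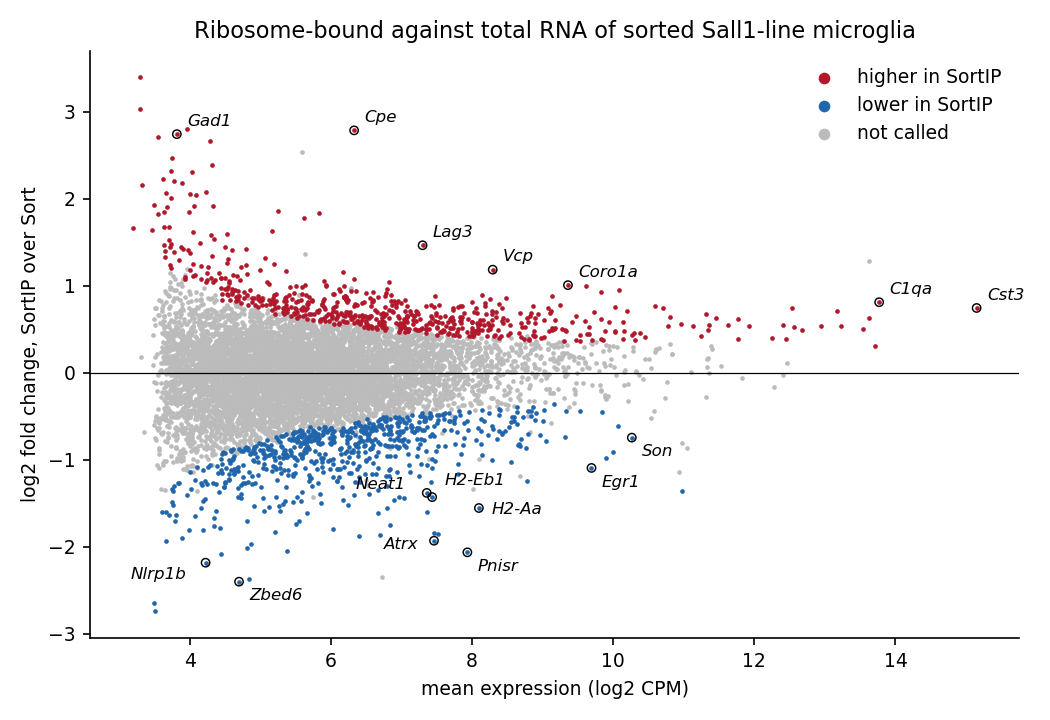
Each point is 1 of the 8603 tested genes, with mean expression (log2 CPM) on the x axis and the log2 fold change of SortIP over Sort on the y axis; red genes were called higher in SortIP, blue genes lower, and grey genes were not called. Abundant microglial genes such as Cst3 and C1qa lie above 0, Neat1, Pnisr, Atrx and the MHC class II genes H2-Aa and H2-Eb1 lie below it, and Cpe (2.79) and Gad1 (2.74) are among the largest rises.

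Complement C1qa went up and the nuclear RNA Neat1 went down in the ribosome-bound fraction. C1qa, which encodes the A chain of the complement initiator C1q (chromosome 4, 136451831 to 136454759, mm9), had 15364, 17416, 16481 and 17117 CPM in SortIP, against 9754, 10565, 11547 and 10087 CPM in Sort. All 4 SortIP libraries lay above all 4 Sort libraries, with a log2 fold change of 0.81 ± 0.10 (adjusted p = 5.04e-06). Neat1 is a long noncoding RNA that scaffolds paraspeckles, bodies of the cell nucleus (chromosome 19, 5824710 to 5845478). It had 112, 52.0, 49.4 and 101 CPM in SortIP, against 261, 201, 155 and 294 CPM in Sort. The groups did not overlap, mice 17 and 9 were the higher ones in both fractions, and the level was 2.61-fold lower in SortIP (log2 fold change -1.38 ± 0.17, adjusted p = 2.13e-06). In homogenate, Neat1 was at 10.2 ± 2.16 CPM in HA and 79.4 ± 26.3 CPM in IgG precipitates (SD, n = 4 each).

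Zbed6, a zinc finger transcription factor gene that lies inside Zc3h11a on the same strand (chromosome 1, 135552456 to 135557462), had 10.2, 0, 5.7 and 3.4 CPM in SortIP, against 47.5, 47.9, 27.6 and 20.0 CPM in Sort. It fell in each mouse (log2 fold change -2.40 ± 0.37, adjusted p = 5.51e-05). Reads of its host could be counted for it, and Zc3h11a itself was lower, by -0.78 ± 0.13 (adjusted p = 1.97e-04). Nlrp1b, an inflammasome sensor gene (chromosome 11, 70966604 to 71044235), had 3.06, 4.0, 3.8 and 6.8 CPM in SortIP, against 33.7, 30.3, 15.8 and 15.4 CPM in Sort. That is a log2 fold change of -2.18 ± 0.43 (adjusted p = 7.07e-04) with no overlap, and it missed the threshold without mouse 17 (adjusted p = 0.0549). Zbed6 and Nlrp1b passed the low-count filter through Sort. At 249881 to 980218 gene counts per SortIP library, their SortIP levels rest on few reads, so the sizes of their falls are uncertain. The genes that define the 2 mouse lines did not pass the test. Sall1 (chromosome 8, 91551143 to 91568061) averaged 247 ± 20.0 CPM in SortIP and 271 ± 38.9 CPM in Sort (log2 fold change 0.01 ± 0.15, adjusted p = 0.971). Cx3cr1, the fractalkine receptor gene, changed by -0.16 ± 0.12 (adjusted p = 0.378), and Rpl22, the tagged gene, by -0.19 ± 0.15 (adjusted p = 0.424).

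Several genes for secreted, lysosomal and surface proteins of microglia were higher in the ribosome-bound fraction. Of 28 homeostatic microglia genes, 13 rose, 0 fell and 15 were not called, and the median was 0.32 against -0.01 for all tested genes. Over all tested genes, 7.37% were called higher and 7.66% lower. Scaling by library size alone left 13 higher but called 3 lower. Cst3, which encodes the secreted protease inhibitor cystatin C, had 36393, 52553, 44084 and 37045 CPM in SortIP, against 23399.7, 28949, 33032 and 26666 CPM in Sort. The groups were apart in every mouse, with a log2 fold change of 0.74 ± 0.10 (adjusted p = 1.28e-05). The other C1q chains rose as C1qa did, C1qb by 0.63 ± 0.11 and C1qc by 0.71 ± 0.11, as did the CSF1 receptor gene Csf1r by 0.54 ± 0.10 and Tmem119, a microglial surface protein gene, by 0.54 ± 0.11. These 4, like P2ry12 and Aif1, were picked after their values had been seen. The ADP receptor gene P2ry12, which lies opposite Med12l, was at 2462 ± 282 CPM in SortIP and 2595 ± 278 CPM in Sort (adjusted p = 0.742), and the actin-binding Aif1 at 1199 ± 159 and 1309 ± 137 CPM (adjusted p = 0.963).

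Lysosomal genes showed the same direction: of 38, 20 were higher, 0 lower and 18 not called, with a median of 0.35. Their summed share was 6.05 ± 0.030% of counts in SortIP and 5.04 ± 0.25% in Sort. The carboxypeptidase gene Ctsa rose by 0.64 ± 0.11 (adjusted p = 2.76e-04) and overlaps Pltp and Neurl2 on the opposite strand. Grn, which encodes progranulin, had 3776, 3989.9, 4085 and 3928 CPM in SortIP, against 2512, 2937, 3082 and 2911 CPM in Sort. Neither group reached the other, and the log2 fold change was 0.61 ± 0.11 (adjusted p = 2.76e-04). Atp6v1a, a catalytic subunit of the proton pump that acidifies lysosomes, rose by 0.88 ± 0.17 (adjusted p = 6.12e-04). With library size scaling alone, 9 of the 38 were higher and 0 lower.

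Of 13 complement and Fc receptor genes, 12 passed the low-count filter, and 5 of these were higher, 0 lower and 7 not called (median 0.36). The IgG receptor genes Fcgr3 and Fcgr1 rose by 0.67 ± 0.12 (adjusted p = 3.28e-04) and 0.58 ± 0.12 (adjusted p = 0.0012). Complement C3 rose by 1.09 ± 0.30 (adjusted p = 0.0137) at low levels, 29.6 ± 12.6 CPM in SortIP and 14.3 ± 6.73 CPM in Sort, and missed the threshold without mouse 21 (0.0694), without mouse 7 (0.0674) or without the block (0.0684). Without mouse 21, 2 of these 12 genes were higher. Among 16 disease-associated microglia genes, which mark microglia near amyloid and damage, 12 passed the filter, 2 were higher and 0 lower (median -0.00). The shares over all tested genes were 7.37% higher and 7.66% lower. The higher ones were the protease gene Ctsl, by 0.62 ± 0.13 (adjusted p = 0.0012), and the lipid carrier gene Apoe, by 0.50 ± 0.11 (adjusted p = 0.0014).

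**Figure D2:**
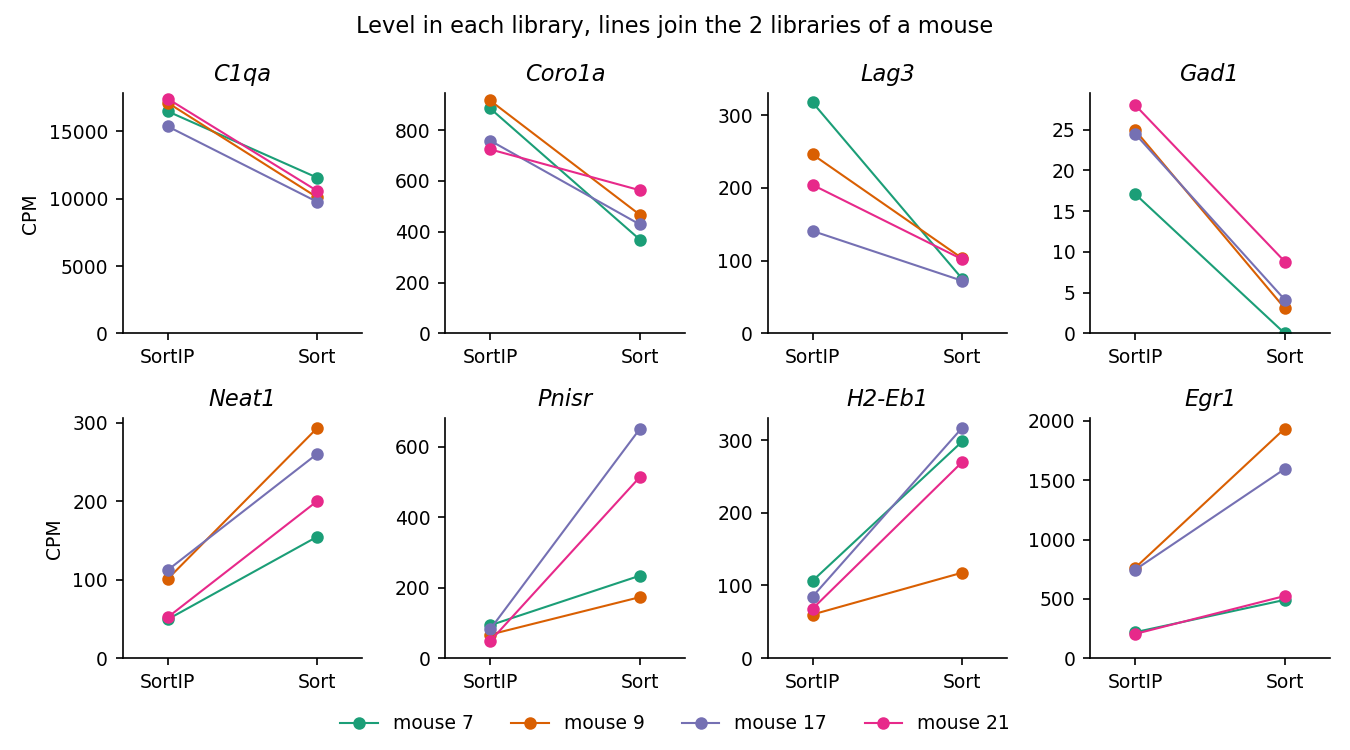
Level of 8 genes in CPM (y axis, from 0) in each SortIP and Sort library (x axis), with a line joining both libraries of a mouse. C1qa, Coro1a, Lag3 and Gad1 are higher in SortIP of every mouse, Neat1, Pnisr, H2-Eb1 and Egr1 are lower in SortIP of every mouse, and for Pnisr the Sort level ranges from 173 CPM (mouse 9) to 650.2 CPM (mouse 17).

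The 12 largest rises and the 12 largest falls were taken from called genes whose groups did not overlap and whose mean level reached 5 on the log2 CPM scale. Separation of the groups in these genes follows from that choice and is no separate support for any of them. Lag3, an inhibitory receptor that binds MHC class II and is best known from T cells, had 141, 204, 317 and 246 CPM in SortIP, against 72.2, 102, 74.9 and 103 CPM in Sort. It was higher in all 4 mice, 2.76-fold (log2 fold change 1.46 ± 0.17, adjusted p = 1.89e-06). Vcp, the ATPase that extracts ubiquitinated proteins from membranes and complexes, had 366, 424, 439 and 434 CPM in SortIP, against 220.2, 191, 206 and 188 CPM in Sort. The gap between groups was larger than the spread within either, with a log2 fold change of 1.18 ± 0.14 (adjusted p = 1.89e-06). Coro1a, an actin-binding protein of leukocytes, had 759, 724, 886 and 917 CPM in SortIP, against 429, 563, 369 and 467 CPM in Sort. It rose by 1.01 ± 0.13 (adjusted p = 7.22e-06).

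Splicing and nuclear protein genes were also among the 12. Pqbp1, a polyglutamine-binding protein linked to splicing, rose by 1.07 ± 0.20, and Sf3b4, a subunit of the SF3b complex of the spliceosome, by 1.05 ± 0.21. The histone variant gene H2afx rose by 1.04 ± 0.26 (adjusted p = 0.0052) and lost its call without mouse 9 (0.0695) and with DESeq2 (0.0744). The alpha-tubulin gene Tuba4a rose by 1.25 ± 0.26, and Tpgs1, a subunit of an enzyme that modifies tubulin, by 1.04 ± 0.17. Tuba4a overlaps Stk16 on the opposite strand and missed the threshold without mouse 17 (adjusted p = 0.0558). The trafficking factor Trappc9, whose locus holds Peg13 on the same strand, rose by 1.01 ± 0.21, and the reductase Cyb5r3 by 1.00 ± 0.23, the second of them losing its call without mouse 9 (0.0560). A430005L14Rik rose by 1.17 ± 0.24 with 86.1 CPM in SortIP of mouse 9 and 37.7 to 44.0 CPM in the other 3. Cpe, a peptide-processing enzyme that belongs to the astrocyte list, had the largest rise of the 12, 2.79 ± 0.44, and is described with that list.

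The 12 largest falls included Atrx, Bod1l and Pnisr. Atrx, a chromatin remodeller (chromosome X, 102992956 to 103124711), had 79.6, 52.0, 58.9 and 35.1 CPM in SortIP, against 480.2, 369.7, 148 and 96.1 CPM in Sort. SortIP was low in every mouse, whereas Sort of mice 17 and 21 lay far above Sort of mice 7 and 9. The log2 fold change was -1.93 ± 0.21 (adjusted p = 3.64e-06). Bod1l, which protects stalled replication forks (chromosome 5, 42178779 to 42235554), had 87.7, 64.0, 55.1 and 41.9 CPM in SortIP, against 462, 347, 135 and 134 CPM in Sort, with the same order of mice. It fell by 1.84 ± 0.19 on the log2 scale (adjusted p = 1.34e-07).

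Pnisr, an SR-related protein of nuclear speckles, had 81.6, 48.0, 93.1 and 66.9 CPM in SortIP, against 650.2, 514, 234 and 173 CPM in Sort. It fell by 2.06 ± 0.43 (adjusted p = 0.0398), a call that was lost without mouse 9 (0.0582), with all 16 sorted libraries in 1 fit (0.0597) and with a correction for GC content and length (0.0927). The remaining large falls were those of Trip11 (-2.05 ± 0.35) and Golga4 (-1.87 ± 0.44), both coiled-coil proteins of the Golgi, Akap9 (-1.87 ± 0.28), a kinase anchor at centrosome and Golgi, and Pnn (-1.86 ± 0.24), a nuclear speckle protein. The GTPase-activating protein gene Arhgap30 changed by -1.75 ± 0.28, the early endosome tether Eea1 by -1.74 ± 0.29 and the elongation factor partner Iws1 by -1.59 ± 0.27. Without the block, the calls of Atrx, Bod1l, Trip11, Golga4, Pnn and Arhgap30 were lost, at adjusted p values from 0.0547 for Pnn to 0.158 for Trip11. With all 16 sorted libraries fitted together, Atrx, Trip11, Golga4, Akap9, Pnn and Arhgap30 lost theirs, at 0.0640 for Akap9 to 0.142 for Golga4, and Bod1l kept its call (0.0479).

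Ptbp2, a repressor of splicing, differed from these in its spread. It had 14.3, 8.0, 17.1 and 11.3 CPM in SortIP, against 51.6, 41.1, 51.2 and 56.1 CPM in Sort, so that the 4 Sort libraries were alike. Its SortIP levels rest on few reads. The log2 fold change was -1.83 ± 0.28 (adjusted p = 4.28e-05). A930013F10Rik, annotated as noncoding and lying within Polb on the same strand, changed by -1.79 ± 0.27 (adjusted p = 9.85e-05). Over the 659 lower genes as a whole, the median log2 ratio within a mouse was -0.96 in mouse 17, -1.14 in mouse 21, -0.81 in mouse 7 and -1.02 in mouse 9, beside medians over all tested genes from -0.22 to -0.10. The 634 higher genes had medians of 0.55, 0.46, 0.46 and 0.63 in mice 17, 21, 7 and 9.

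RNAs without a protein product leaned to the lower side. Of 115 tested genes annotated as noncoding, 1 was higher and 29 were lower, with a median of -0.44, whereas 8447 protein-coding genes were 632 higher and 624 lower with a median of -0.00. The low-count filter passes a gene that is high enough in Sort alone. The direction and median of the noncoding genes, and of the nuclear-retained list below, can be partly set by that filter. Of 17 listed nuclear-retained RNAs, 13 have a row in the table and 5 passed the filter, 2 of which were lower and 0 higher (median -0.93). These were Neat1 and Kcnq1ot1, a chromatin-bound transcript of an imprinted region, which fell by 0.93 ± 0.21 (adjusted p = 0.0031). Kcnq1ot1 lies opposite Kcnq1, and with a length correction its change was no longer called (adjusted p = 0.646, and 0.970 with GC content added), nor was it with all 16 sorted libraries fitted together (0.115). Malat1, an abundant transcript of nuclear speckles, was not called (-1.14 ± 0.55, adjusted p = 0.308). It had 1576, 536, 910.4 and 942 CPM in SortIP, against 5990.4, 3018, 921 and 1599 CPM in Sort, so that mouse 7 alone showed nearly equal levels, and without mouse 7 it was called (-1.56, adjusted p = 0.0098).

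Among other noncoding genes, picked after their values had been seen, Firre, a nuclear RNA transcribed from the X chromosome, had 9.18, 8.0, 5.70 and 9.06 CPM in SortIP, against 37.2, 42.1, 42.0 and 32.3 CPM in Sort. It fell without overlap, by 2.02 ± 0.32 (adjusted p = 8.17e-05). Gt(ROSA)26Sor, the noncoding gene of the Rosa26 locus, had 9.18, 8.0, 15.2 and 14.7 CPM in SortIP, against 36.5, 42.1, 31.5 and 44.6 CPM in Sort, a log2 fold change of -1.53 ± 0.30 (adjusted p = 6.88e-04). Firre and Gt(ROSA)26Sor passed the low-count filter through Sort, and their SortIP levels rest on few reads. Host genes of small nucleolar RNAs were 0 higher and 1 lower of 8 that passed the filter, out of 15 listed (median -0.50). The direction and median of these host genes can also be partly set by the filter. The lower one, Snhg5 (-0.99 ± 0.32, adjusted p = 0.0363), lost its call without mouse 17, 7 or 9 and without the block (largest adjusted p 0.249).

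Messages of a list of Clk kinases and SR splicing factors were lower in SortIP where they changed. Outside this list, the splicing genes Sf3b4 and Pqbp1 rose, as given above. Of 26 genes for Clk kinases, SR proteins and their partners, 14 were lower, 0 higher and 12 not called, with a median of -0.53. Their summed share was 0.451 ± 0.048% of counts in SortIP and 0.743 ± 0.087% in Sort. Son, a large speckle scaffold, had 1202, 688, 947 and 623 CPM in SortIP, against 1740.0, 1325, 1457 and 1741 CPM in Sort. No SortIP library reached a Sort library, and the log2 fold change was -0.75 ± 0.13 (adjusted p = 3.28e-04). Srrm2, another speckle scaffold, overlaps Elob on the opposite strand and fell by 0.87 ± 0.15 (adjusted p = 2.68e-04), losing its call when all 16 sorted libraries were fitted together (adjusted p = 0.135). Of the 26, 9 were lower without mouse 21, 11 without the block and 10 with DESeq2.

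Genes named Zfp with a number, mostly zinc finger regulators, leaned the same way: 187 of the 358 genes passed the filter, and 27 of these were lower, 6 higher and 154 not called (median -0.24). Among all tested genes 7.66% were called lower and 7.37% higher. A gene high enough in Sort alone passes the low-count filter, so this direction and median can be partly set by it. Zfp950 had 28.6, 36.0, 17.1 and 22.7 CPM in SortIP, against 94.9, 80.2, 77.5 and 62.3 CPM in Sort. All 4 pairs moved down, by -1.50 ± 0.23 (adjusted p = 4.8e-05). Zfp326 changed by -0.96 ± 0.20 (adjusted p = 0.0014, and 0.0603 without mouse 17) and Zfp91 by -0.85 ± 0.18 (adjusted p = 0.0015). Gm44505 lies within Zfp91 on the same strand. In the other direction, Zfp207, a spindle-associated protein gene, rose by 0.68 ± 0.16 (adjusted p = 0.0032). Without mouse 21, 17 were lower and 4 higher, and with DESeq2 9 and 2.

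**Figure D3:**
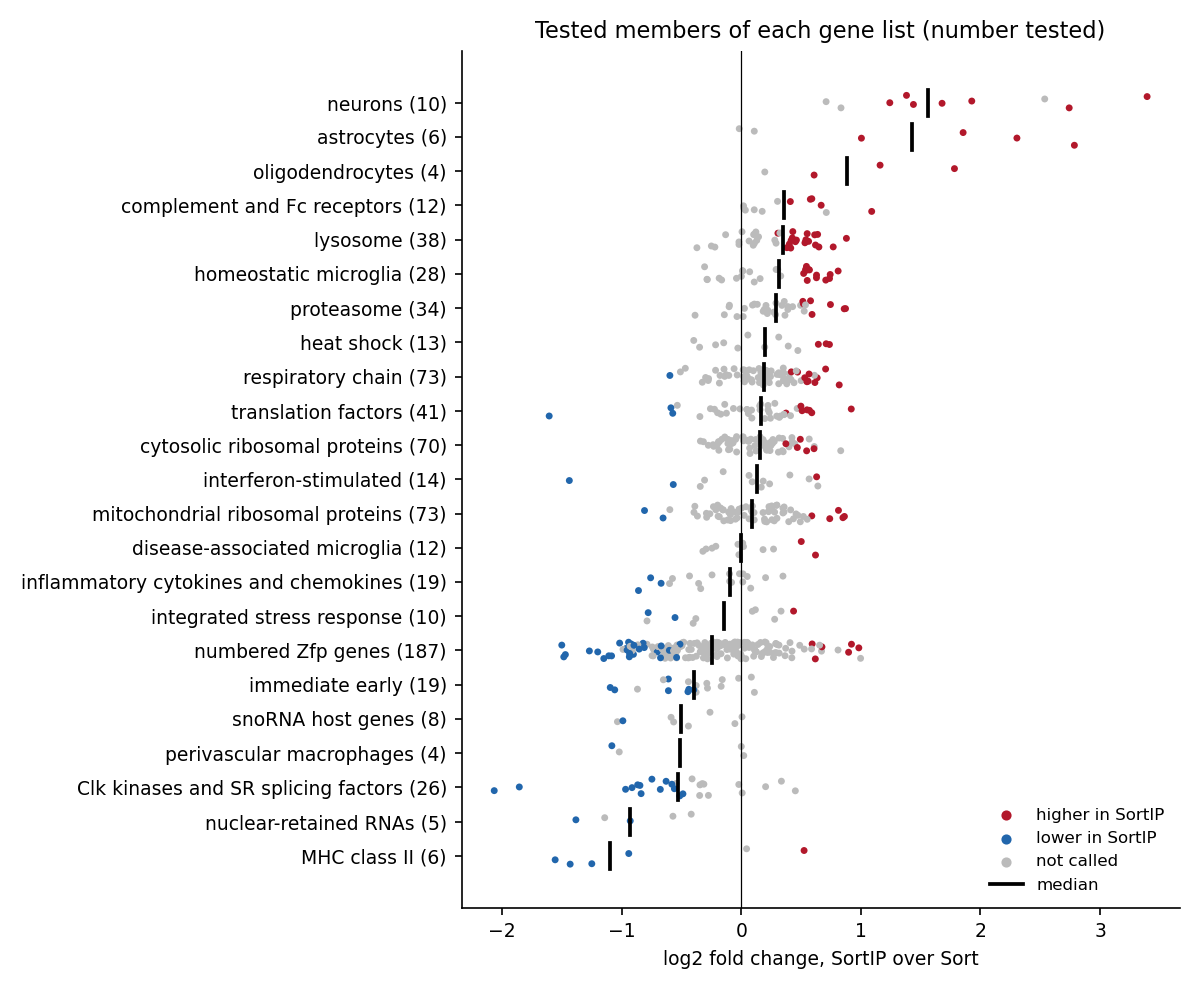
Log2 fold change of SortIP over Sort (x axis) of every tested member of each gene list with at least 4 tested members (y axis, number tested in brackets); red points were called higher, blue points lower, grey points were not called, and black bars are medians. Medians run from -1.09 for MHC class II to 1.56 for neuronal genes, and no Clk kinase or SR splicing factor gene is red.

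Messages of the translation machinery are given beside the shares over all tested genes, 7.37% called higher and 7.66% called lower. Of 79 cytosolic ribosomal protein genes 70 passed the filter, 5 were higher, 0 lower and 65 not called, with a median of 0.16 that was 0.02 with library size scaling alone. Rpl29 rose by 0.61 ± 0.14 and Rpl8 by 0.47 ± 0.12, and Rpl8 lost its call with library size scaling (adjusted p = 0.0605). Without mouse 21, 2 of the 70 were higher. Reads of ribosomal protein genes can be shared with pseudogene copies, so these values are uncertain. Of 41 translation factor genes that passed, out of 42, 7 were higher and 3 lower (median 0.16), and 4 and 3 without mouse 21. Eef2, which moves the ribosome along the message, had 817, 868, 910.4 and 897 CPM in SortIP, against 650.2, 618, 653 and 643 CPM in Sort. Levels were tight within each group and apart between them (0.59 ± 0.12, adjusted p = 0.0011). The initiation factor genes Eif3d and Eif4h rose by 0.92 ± 0.18 (adjusted p = 5.55e-04) and 0.57 ± 0.14 (adjusted p = 0.0049, and 0.0515 without mouse 17), whereas Eif3a, the largest subunit of the same eIF3 complex, had 91.8, 52.0, 53.2 and 45.3 CPM in SortIP, against 462, 335, 105 and 83.8 CPM in Sort. It fell by 1.61 ± 0.27 (adjusted p = 0.0014), with the order of mice seen for Atrx, and lost its call without the block or with all 16 sorted libraries fitted together (largest adjusted p 0.176).

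Respiratory chain and mitochondrial ribosomal protein genes had calls in both directions, and proteasome genes only higher ones. The shares over all tested genes were 7.37% called higher and 7.66% called lower. Mitochondrial ribosomal protein genes did not exceed these shares in either direction. Of 73 tested respiratory chain genes 10 were higher and 1 lower (median 0.19), or 4 and 1 without mouse 21, with Ndufa9 of complex I at 0.71 ± 0.16, Atp5b of the ATP synthase at 0.57 ± 0.13 and Uqcrc1 of complex III at 0.62 ± 0.15 (adjusted p from 0.0027 to 0.0039). Ndufa3 of complex I was the lower one (-0.60 ± 0.17, adjusted p = 0.0157), and its call was lost without mouse 17, 7 or 9 and with DESeq2 (largest adjusted p 0.0935). Mitochondrial ribosomal protein genes were 5 higher, 2 lower and 66 not called of 73 (median 0.09), and with DESeq2 0 were called either way, with 1629 genes of all tested at an unadjusted p under 0.05. Mrpl3 (0.81 ± 0.21), Mrpl43 (0.59 ± 0.16) and Mrps28 (0.85 ± 0.24) rose and Mrps24 (-0.65 ± 0.18) fell, and each lost its call without at least 1 mouse (adjusted p up to 0.0897, 0.0623, 0.0756 and 0.0756). Of 34 proteasome genes 7 were higher, 0 lower and 27 not called (median 0.29), and 4 were higher without mouse 21. Psmb10, a subunit of the immunoproteasome, had 407, 408, 393 and 419 CPM in SortIP, against 246, 228, 296 and 307 CPM in Sort. It rose by 0.75 ± 0.14 (adjusted p = 3.87e-04), and the core subunit genes Psmb7 and Psmb1 by 0.86 ± 0.18 and 0.59 ± 0.13.

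Classical MHC class II genes, which present antigen to CD4+ T cells, were lower in the ribosome-bound fraction, while a gene for their peptide loading was higher. Of 7 listed genes 6 passed the filter, 4 were lower, 1 was higher and 1 was not called (median -1.09). H2-Aa (chromosome 17, 34419696 to 34424716) had 139, 60.0, 182 and 88.4 CPM in SortIP, against 469.9, 478, 527 and 175 CPM in Sort. It fell in each mouse (-1.56 ± 0.21, adjusted p = 1.45e-04), although Sort of mouse 9 lay below SortIP of mouse 7. H2-Ab1 (chromosome 17, 34400172 to 34406363) had 253, 176, 293 and 195 CPM in SortIP, against 745, 672, 750.2 and 346 CPM in Sort, with no overlap (-1.25 ± 0.15, adjusted p = 1.89e-06). H2-Eb1 (chromosome 17, 34442812 to 34453619) had 84.7, 68.0, 106 and 60.1 CPM in SortIP, against 317, 270.0, 298 and 118 CPM in Sort. Mouse 9 was the lowest Sort library for all of these, and H2-Eb1 fell by 1.43 ± 0.18 (adjusted p = 2.58e-06).

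The invariant chain gene Cd74, picked after its values had been seen, fell by 0.94 ± 0.18 (adjusted p = 0.0012). H2-DMa, a subunit of the chaperone that loads peptide onto class II, had 887, 696, 842 and 1148 CPM in SortIP, against 632, 609, 730.5 and 754 CPM in Sort, and rose by 0.53 ± 0.12 (adjusted p = 0.0036). Without the block, H2-Aa (0.0695) and Cd74 (0.0551) lost their calls and 2 of the list were lower. Border and perivascular macrophages are another source of class II message. Of their 13 listed markers 4 passed the filter, with 0 higher and 1 lower, and the list took 0.0553 to 0.0730% of counts in SortIP and 0.0568 to 0.0893% in Sort. The chemokine gene Pf4, on that list, fell by 1.08 ± 0.32 (adjusted p = 0.0192, lost without mouse 17 or 7 or the block), while the mannose receptor gene Mrc1 averaged 96.7 ± 22.5 CPM in SortIP and 109.6 ± 26.1 CPM in Sort (adjusted p = 0.998). None of the 13 was at 0 in all 8 libraries, and their part in the class II values was not tested.

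Of 14 interferon-stimulated genes tested, 1 was higher, 2 lower and 11 not called (median 0.13), beside 7.37% of all tested genes called higher and 7.66% called lower. Bst2, which tethers virus particles at the cell surface, rose by 0.63 ± 0.14 (adjusted p = 0.0025). Mx1, an antiviral GTPase gene, had 15.3, 8.0, 5.70 and 12.5 CPM in SortIP, against 35.1, 26.4, 35.5 and 34.6 CPM in Sort. It fell with no overlap (-1.44 ± 0.31, adjusted p = 0.0019), on few reads in SortIP.

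**Figure D4:**
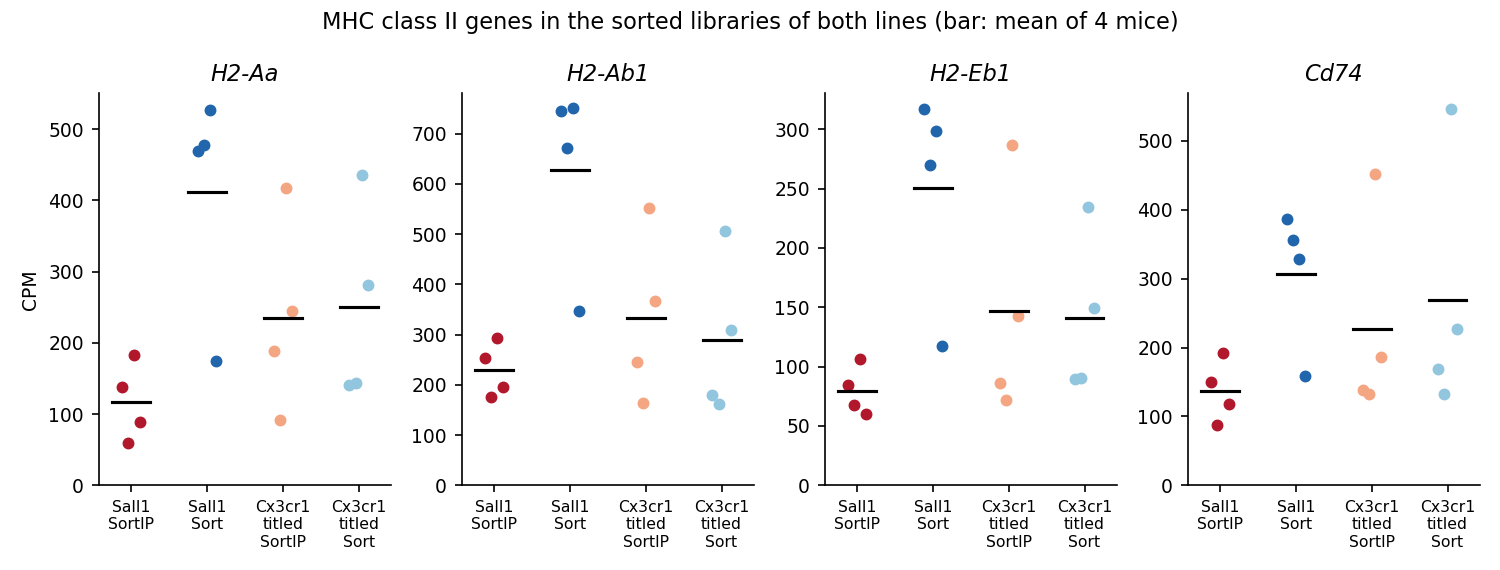
CPM (y axis, from 0) of 4 MHC class II genes in the sorted libraries of both lines, 1 point per mouse and a bar at the mean of 4 mice; the Cx3cr1 libraries are placed by title. In the Sall1 line H2-Eb1 averages 79.8 CPM in SortIP and 250.8 CPM in Sort, and in the Cx3cr1 line 146.9 CPM in titled SortIP and 140.8 CPM in titled Sort.

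Whether a change was particular to the Sall1 line was tested as an interaction over all 16 sorted libraries, mouse blocked. The 8 sorted Cx3cr1 libraries carry titles and descriptions that assign them to opposite groups, so both assignments were run. By title, 2846 genes of 9212 differed (30.9%): 1404 differed as higher in the Sall1 line (15.2%) and 1442 as lower (15.7%). By description, 0 were higher and 3 lower (0.0326% either way, edgeR), with 316 genes at an unadjusted p under 0.05. Across the 9212 genes the correlation between the SortIP over Sort changes of both lines was -0.70 by title and 0.70 by description, a description over genes, which are not independent. C1qa differed by 1.57 between lines by title (adjusted p = 1.7e-08) and by 0.06 by description (adjusted p = 1.00). Which assignment is right cannot be settled from the labels, and it was not tested. Homeostatic microglia genes took 14.0 to 15.4% of counts in titled Cx3cr1 Sort and 10.4 to 12.5% in titled Cx3cr1 SortIP. In the Sall1 line they took 13.4 to 15.3% in SortIP and 9.88 to 11.8% in Sort. The differences by title can be read as line differences only if the titles are right.

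H2-Ab1 and H2-Eb1 differed between lines under both assignments, and their mean Cx3cr1 levels were close in both kinds of library. H2-Ab1 changed by 0.08 ± 0.14 in the Cx3cr1 line by title (adjusted p = 0.729), which turns sign by description. Its difference, Sall1 minus Cx3cr1, was -1.33 by title (adjusted p = 9.78e-06) and -1.16 by description (adjusted p = 0.0090). H2-Eb1 differed by -1.29 by title (adjusted p = 9.05e-05) and by -1.56 by description (adjusted p = 0.0012). Cd74 differed by -0.58 by title (adjusted p = 0.0589) and by -1.29 by description (adjusted p = 0.0254), and H2-Aa by -1.32 (adjusted p = 0.0037) and -1.78 (adjusted p = 0.0655). By description, leaving out Sall1 mouse 17 left 0 genes called (400 at an unadjusted p under 0.05), leaving out Sall1 mouse 7 or Cx3cr1 mouse 3 or 4 left 1, and without the block 0 were called (253 at an unadjusted p under 0.05).

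Some early response genes were lower in SortIP. Of 24 immediate early genes, which are switched on within minutes of a stimulus such as tissue dissociation, 19 passed the filter, 7 were lower, 0 higher and 12 not called (median -0.40). Among all tested genes 7.66% were called lower and 7.37% higher. Egr1, a zinc finger factor of this class, had 745, 204, 219 and 760.3 CPM in SortIP, against 1595, 524, 491 and 1936 CPM in Sort. Mice 17 and 9 were high in both fractions and mice 21 and 7 low in both, so the groups overlapped, while each mouse had less in SortIP (-1.09 ± 0.13, adjusted p = 1.57e-06). Klf4 fell by 1.06 ± 0.20 (adjusted p = 5.12e-04) and Ier5 by 0.44 ± 0.13 (adjusted p = 0.0174, lost without mouse 17 or 21). Fos, picked after its values had been seen, had 1088, 264, 253 and 1824 CPM in SortIP, against 1972, 681, 523 and 1728 CPM in Sort. It was lower in SortIP of 3 of 4 mice (-0.61 ± 0.19, adjusted p = 0.0413) and lost its call without mouse 21 or 7. Without the block, 0 of the 19 were called (edgeR, 2289 of all tested genes at an unadjusted p under 0.05), and without mouse 21, 3 were lower. DESeq2 called 4 lower, and library size scaling 12.

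Some inflammatory cytokine and chemokine genes were also lower. Of 24 listed 19 passed, 3 were lower, 0 higher and 16 not called (median -0.10), and without the block 0 were called. For this list and the stress response below, the shares over all tested genes were 7.37% higher and 7.66% lower. Ccl3, a chemokine gene, had 389, 128, 158 and 423 CPM in SortIP, against 683, 319, 229.9 and 844 CPM in Sort. Within mice it was lower each time, by -0.76 ± 0.14 (adjusted p = 4.51e-04). Ccl2 fell by 0.86 ± 0.20 (adjusted p = 0.0030, and 0.0639 without mouse 9) and the NF-kappaB regulator gene Nfkbiz by 0.67 ± 0.19 (adjusted p = 0.0137, lost without mouse 17, 21 or 9). Genes of the integrated stress response were 1 higher and 2 lower of 10 tested (median -0.14), and without the block 0 were called, with adjusted p values of 0.0608 for Herpud1, 0.270 for Atf4 and 0.680 for Ppp1r15a (edgeR, 2289 of all tested genes at an unadjusted p under 0.05). Atf4, its central transcription factor, fell by 0.55 ± 0.14 (adjusted p = 0.0059, and 0.127 without mouse 17). Ppp1r15a, which recruits the phosphatase that ends the response, fell by 0.78 ± 0.20 (adjusted p = 0.0105, 0.269 without mouse 17 and 0.0509 without mouse 21), and Tulp2 lies opposite it. Herpud1 rose by 0.44 ± 0.14 (adjusted p = 0.0254) and lost its call without any 1 mouse.

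Heat shock genes showed 3 higher and 0 lower of 13 tested (median 0.20), beside 7.37% of all tested genes called higher and 7.66% called lower. Hspa8, a constitutive chaperone gene, had 1480.3, 2745, 2537 and 1209 CPM in SortIP, against 1046, 1395, 1366 and 1213 CPM in Sort. Mice 21 and 7 had the largest rises, mouse 17 a smaller one and mouse 9 nearly equal levels (0.74 ± 0.14, adjusted p = 7.07e-04). Bag3 rose by 0.65 ± 0.18 and Hspd1 by 0.71 ± 0.21, and both lost their calls without mouse 17 (0.0579 and 0.0726), Bag3 also without mouse 21 and Hspd1 also without mouse 7 or 9. Without the block, none of the 3 was called (adjusted p 0.0910 to 0.0983), with 2289 of all tested genes at an unadjusted p under 0.05.

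Some markers of neurons, astrocytes and oligodendrocytes were higher in SortIP, at low shares of all counts. Of 17 neuronal genes 10 passed the filter, 7 were higher, 0 lower and 3 not called (median 1.56), and the list took 0.0260 to 0.0404% of counts in SortIP and 0.0064 to 0.0247% in Sort. The low-count filter passes a gene that is high enough in either group alone. Members near 0 in Sort, such as Gad1, were therefore tested only because SortIP was high. The direction and median of this list, and of the astrocyte and oligodendrocyte lists below, are partly set by that filter. In homogenate of the same line the share was 0.25% in HA and 1.17% in IgG. Gad1, which makes the transmitter GABA, had 24.5, 28.0, 17.1 and 24.9 CPM in SortIP, against 4.13, 8.80, 0 and 3.08 CPM in Sort. Every SortIP library exceeded every Sort library (2.74 ± 0.43, adjusted p = 6.54e-05), and Gad1os lies on the opposite strand. The kinase gene Camk2a rose by 1.24 ± 0.29 (adjusted p = 0.0031, and 0.0774 without mouse 17). Snap25, a synaptic vesicle fusion gene picked after its values had been seen, was at 64.6 CPM in Sort of mouse 21 and at 4.82 to 9.23 CPM in the other Sort libraries, and was not called (2.54 ± 0.68, adjusted p = 0.0876). It was called without mouse 21 (3.60, adjusted p = 3.16e-06), without mouse 17 (2.05, adjusted p = 7.49e-09), with DESeq2 and with no low-count filter.

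Of 17 astrocyte genes 6 passed, 4 were higher and 0 lower (median 1.43), with a share of 0.111 to 0.168% in SortIP and 0.101 to 0.120% in Sort. Cpe had 168, 172, 83.6 and 133 CPM in SortIP, against 12.4, 68.5, 22.3 and 9.23 CPM in Sort. It was higher in all 4 mice (adjusted p = 0.0066, and 0.0589 without the block). The glutamate transporter gene Slc1a2 rose by 2.31 ± 0.35 (adjusted p = 4.8e-05) and the glycolytic Aldoc by 1.86 ± 0.26 (adjusted p = 1.74e-05). Of 13 oligodendrocyte genes 4 passed, 3 were higher and 0 lower (median 0.89), with 0.0245 to 0.0548% of counts in SortIP and 0.0129 to 0.0279% in Sort. Mbp, a major myelin protein gene, rose by 1.16 ± 0.21 (adjusted p = 4.12e-04) and Cnp by 0.61 ± 0.20 (adjusted p = 0.0373, lost without any 1 mouse). Without the block 4 neuronal, 1 astrocyte and 0 oligodendrocyte genes were called, and without mouse 21 the counts were 5, 3 and 2.

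Other types left little to test. The listed markers of neutrophils (11), oligodendrocyte precursors (9) and mural cells (9) had 0 members above the filter. Endothelial markers had 2 of 13, Slc2a1 (0.26 ± 0.26) and Pecam1 (0.57 ± 0.41), neither called. The lists of monocytes, lymphocytes and ependymal cells had 1 tested gene each. These were Ccr2 (-0.95 ± 0.38, adjusted p = 0.0858), Cd79b (0.06 ± 0.25) and Pltp (-0.03 ± 0.28), in that order. Pltp overlaps Ctsa on the opposite strand, and a single gene does not stand for its cell type. The choroid plexus gene Ttr had 1191, 3889.9, 656 and 667 CPM in SortIP, against 4061, 1367, 1599 and 2462 CPM in Sort. Mouse 21 reversed the order of the other 3, and Ttr was called lower without it (-1.52, adjusted p = 1.16e-05). In these bulk libraries fewer cells of a type and less RNA per cell cannot be told apart, and the part of nonspecific precipitation was not tested.

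Messages higher in SortIP had more G and C, and were shorter, than messages lower in SortIP. Among 8387 genes with a coding sequence in GENCODE M21, the median share of G or C at the third codon position was 66.1% in the 625 higher genes, 50.4% in the 621 lower genes and 60.3% in the 7141 not called. Spearman's rho between that share and the fold change was 0.31 across genes, and within single mice it was 0.18, 0.14, 0.16 and 0.37 in mice 17, 21, 7 and 9, all positive. Genes are not independent and share libraries and base-dependent amplification, so these values carry no test. Whole-transcript GC content had medians of 54.0% in higher and 46.2% in lower genes (50.5% not called), with a rho of 0.32. Transcript length had medians of 2389 bases in higher and 3683 bases in lower genes (2884 not called, rho -0.16), 3' untranslated regions 672 and 1299 bases, and coding sequences 1335 and 1689 bases. With GC content and length corrected in each library, 562 genes were higher and 524 lower, and 927 of the 1293 called genes remained called in the same direction.

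The last 90 coding bases of 2 messages higher in SortIP and 2 lower, chosen after their values had been seen, show this at the level of codons. Each is written 5' to 3' up to the stop codon, with G or C at the third codon position in capitals, from the GENCODE M21 transcripts C1qa-201, Coro1a-201, Atrx-202 and Bod1l-201 (GRCm38).
C1qa: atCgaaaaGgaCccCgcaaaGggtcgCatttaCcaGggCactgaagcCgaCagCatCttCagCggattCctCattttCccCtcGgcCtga
Coro1a: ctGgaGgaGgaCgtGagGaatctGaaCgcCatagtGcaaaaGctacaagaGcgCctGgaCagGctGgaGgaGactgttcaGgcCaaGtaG
Atrx: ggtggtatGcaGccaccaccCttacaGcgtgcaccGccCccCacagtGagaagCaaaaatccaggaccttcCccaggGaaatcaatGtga
Bod1l: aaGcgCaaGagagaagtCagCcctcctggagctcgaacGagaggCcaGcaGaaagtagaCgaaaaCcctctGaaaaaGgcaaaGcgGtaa
Of 30 codons, the third base is G or C in 21 of C1qa, 23 of Coro1a, 12 of Atrx and 15 of Bod1l. Over the whole coding sequence the shares are 65.0% for C1qa, 68.2% for Coro1a, 36.1% for Atrx and 38.7% for Bod1l. All 4 genes lie on the minus strand, of chromosomes 4, 7, X and 5.

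**Figure D5:**
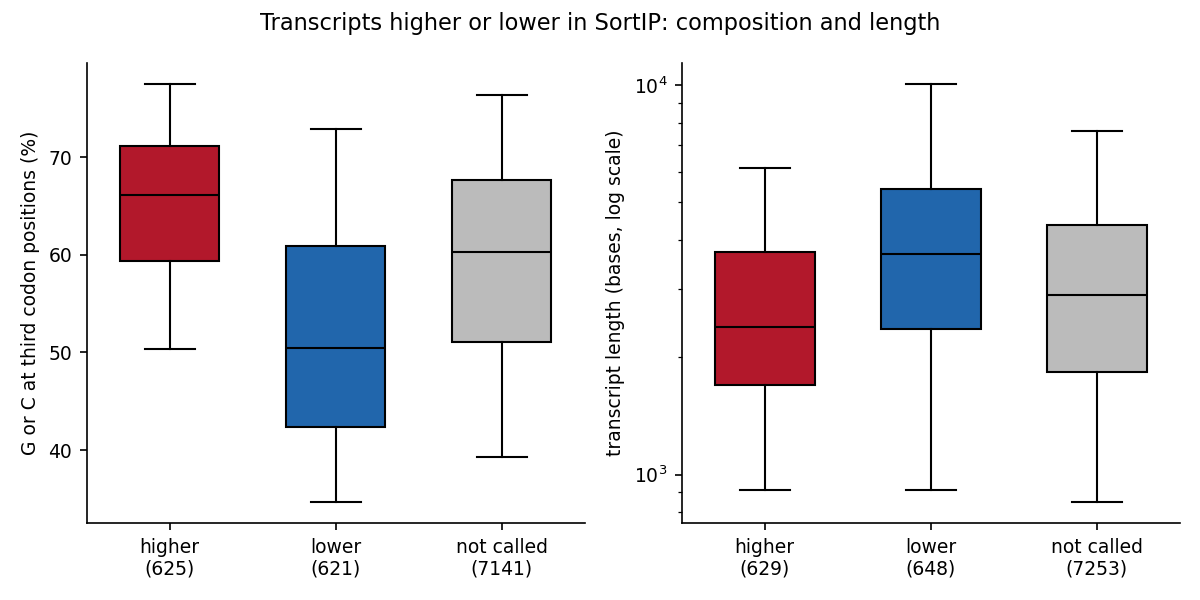
Share of G or C at the third codon position (left, percent) and transcript length (right, bases, log scale) of genes called higher in SortIP, called lower and not called, with the number of genes in brackets; boxes span the quartiles with the median as a line, and whiskers reach the 5th and 95th percentiles. The higher genes have the highest median GC share (66.1%) and the lowest median length (2389 bases), and the lower genes the reverse (50.4% and 3683 bases).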

How the data were processed

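The authors deposited 1 table of raw, unnormalized exon read counts (24411 genes, 32 libraries), per the file headers. bcl2fastq, HISAT 0.1.5, HOMER and mouse build mm9 are named in the submitters' processing notes. The strand setting and the treatment of multiply mapped reads are not given in the sources used here. Reads of overlapping genes therefore cannot be told apart. Replicates differed by more than counting error, with chi-square over degrees of freedom from 1.89 to 5.13 in 12 pairs, and no molecular identifiers separated PCR copies.

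SortIP was tested against Sort with edgeR 4.0.16 (R 4.3.3): TMM scaling, low-count filter (minimum count 10), robust quasi-likelihood fit, mouse as block, and Benjamini-Hochberg adjustment over all tested genes. Every single-gene adjusted p is from edgeR unless DESeq2 1.42.0 is named. The same number marks the same mouse per the series design, and deviations from group means correlated within mice by 0.0839, 0.0404, 0.140 and 0.251 (mice 17, 21, 7 and 9). Alternatives were the fit without the block, other scalings and filters, DESeq2, corrections for length and for length with GC content, all 16 sorted libraries together, and each mouse left out. The correction that includes GC content, and the description grouping without the block or with a mouse left out, were added after the data had been seen.

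Named genes are the 4 given markers and the line genes, the 12 largest changes each way (mean log2 CPM of at least 5, no overlap), and the 3 strongest members of each list with the strongest in the other direction. Some genes the rule names are not reported here. Others are said to be picked after their values had been seen. Members and lists were chosen with earlier results of these data known. Coordinates are those of the table (mm9), and transcript features come from GENCODE M21 by RefSeq ID, for 97.5% of tested genes (coding) and 99.2% (transcript).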

Additional observations from a re-analysis of the deposited data

Results flagged for a closer look

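Among 288 groups of 4 libraries (a named gene's CPM, a list's share or a library measure in SortIP or in Sort), 22 held a library far from the other 3 (7.64%), and chance gives about 1 in 20. No explanation was tested. In SortIP of mouse 21, Slc1a2 was at 52.0 CPM, Cnp at 80.0 CPM and Ttr at 3889.9 CPM, each above the other 3 libraries. The same library had the highest shares of neutrophil (0.0256%), oligodendrocyte (0.0548%) and choroid plexus genes (0.403%) and the lowest endothelial share (0.0044%). In SortIP of mouse 9, A430005L14Rik (86.1 CPM), H2afx (65.7 CPM) and Trem2 (3833 CPM) were far above the others, and Aif1 (962 CPM) and the ependymal share (0.0022%) far below. In SortIP of mouse 17, Kcnq1ot1 was at 74.5 CPM and Eif3a at 91.8 CPM, above the other 3.

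In Sort of mouse 21, Zfp207 (144 CPM), Snap25 (64.6 CPM), the neuronal share (0.0247%) and the share of mapped reads in genes (65.8%) were far above the other 3, and Sf3b4 (25.4 CPM) and Mx1 (26.4 CPM) far below. H2-Aa was low in Sort of mouse 9 (175 CPM), and the neutrophil share was 0.005% in Sort of mouse 7 and 0 in the other 3. Leaving out mouse 21 or 9 did not end the calls of Slc1a2, H2-Aa, Sf3b4, Mx1 or Zfp207.

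The change of SortIP over Sort differed between lines, Sall1 minus Cx3cr1, for H2-Ab1 (-1.33 by title, -1.16 by description) and H2-Eb1 (-1.29 by title, -1.56 by description), by an interaction term in edgeR under both assignments of the Cx3cr1 libraries. By description these calls did not hold: 0 genes were called without the block, and 0 without Sall1 mouse 17.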

How the results depend on the processing

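The fit with the replicate block made 1293 calls and the fit with no replicate block 906 (469 higher, 437 lower), and 905 genes were called in the same direction in both. DESeq2 called 522 (255 higher, 267 lower), 515 of them also among the 1293 in the same direction, and gave no adjusted p to 240. A stricter filter, with fewer genes tested, called 858 (403 higher, 455 lower). Library size scaling gave 356 higher and 1141 lower. Leaving out 1 mouse gave 702 to 988 calls, 353 to 462 higher and 349 to 544 lower. The cause of these shifts was not tested. Of 96 called genes named here, 70 kept their call without any 1 mouse and 50 in all alternatives that gave an adjusted p, 30 lost it without the block and 11 with DESeq2, and 0 changed direction. The difference between lines gave 2846 calls by title (1404 higher, 1442 lower) and 3 by description (0 higher, 3 lower). By title, DESeq2 called 1877 (930 lower) and library size scaling 846 higher and 2346 lower. Leaving out 1 mouse gave 2248 to 2896 by title and 0 to 4 by description, and without the replicate block 0 by description. Shallow SortIP libraries, mouse 21 above all, limit genes with few reads, and changes of genes below the filter were not tested.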
